A study of Mus musculus with 6 samples.

Results

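The platelet-derived growth factor (PDGF) family was measured in testis cells of prepubertal mice, divided by magnetic sorting according to Thy1, a surface glycoprotein. Its 4 ligand genes are Pdgfa, Pdgfb, Pdgfc and Pdgfd, and its 2 receptor genes are Pdgfra and Pdgfrb. A probe set was taken as a member when the platform annotation gave it 1 of these symbols and no other gene. All 6 genes of the 18193 with a probe set of their own were measured, by 14 of 45037 probe sets. The fractions are Thy1-positive cells, which the labels describe as enriched in spermatogonial stem cells by transplantation assay, and Thy1-negative cells, described as depleted of them. Each fraction has 3 arrays of total RNA, from independent donor preparations per the labels. They are called P1, P2 and P3 (Thy1-positive) and N1, N2 and N3 (Thy1-negative). The strain, the exact age and the number of donors per preparation are not given in the sources used here. The labels name no treatment and no genetic change for either fraction, and each is a mixture of testis cells.

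PDGF chains form disulphide-linked dimers that bring together a pair of receptor chains, and these are tyrosine kinases that phosphorylate each other and recruit adaptor proteins. PDGF-A and PDGF-C act through the alpha receptor, PDGF-B through both receptors, and PDGF-D mainly through the beta receptor. PDGF-C and PDGF-D are secreted with a CUB domain that has to be cut off before they are active. In the mouse testis, Pdgfa is known as a product of the seminiferous tubules that acts on Pdgfra of interstitial cells, and mice without Pdgfa fail to form adult Leydig cells. Pdgfb and Pdgfrb are best known from blood vessels, where endothelial cells supply the ligand to pericytes.

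In Thy1-positive cells the ligand genes moved in different directions while no receptor probe set passed the test. Pdgfb rose 3.58-fold by its brighter probe set, Pdgfc fell to a level 9.18-fold below that of Thy1-negative cells, and Pdgfa to one 3.83-fold below. Pdgfd, Pdgfra and Pdgfrb did not pass. Of the 14 probe sets 2 were higher, 4 were lower and 8 were not called, by limma at an adjusted p below 0.05 over all probe sets. Over all probe sets tested, 11.8% were called higher and 11.5% lower, 23.4% in all. Non-overlapping values between fractions were seen for 6 of the 14 probe sets, against 43.6% of all probe sets, and at gene level for 3 of the 6 genes, against 51.4%. Most members are bright, and bright probe sets are called more often. In a fit of the 22518 probe sets above the median alone, 55.8% were called (29.0% higher, 26.8% lower), and of the 12 member probe sets among them 2 were higher and 4 lower. The share of members called was therefore not above that of other bright probe sets. The count of higher members was 1 without P3 or N3, and the count of lower members was 2 without P1, P2 or N1 and 0 without P3 or N3. Calls fell over the whole table in these fits, to 7.05% of all probe sets without P3, 9.39% without N3, 12.1% without P1, 12.4% without N1 and 18.3% without P2.

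**Figure D1:**
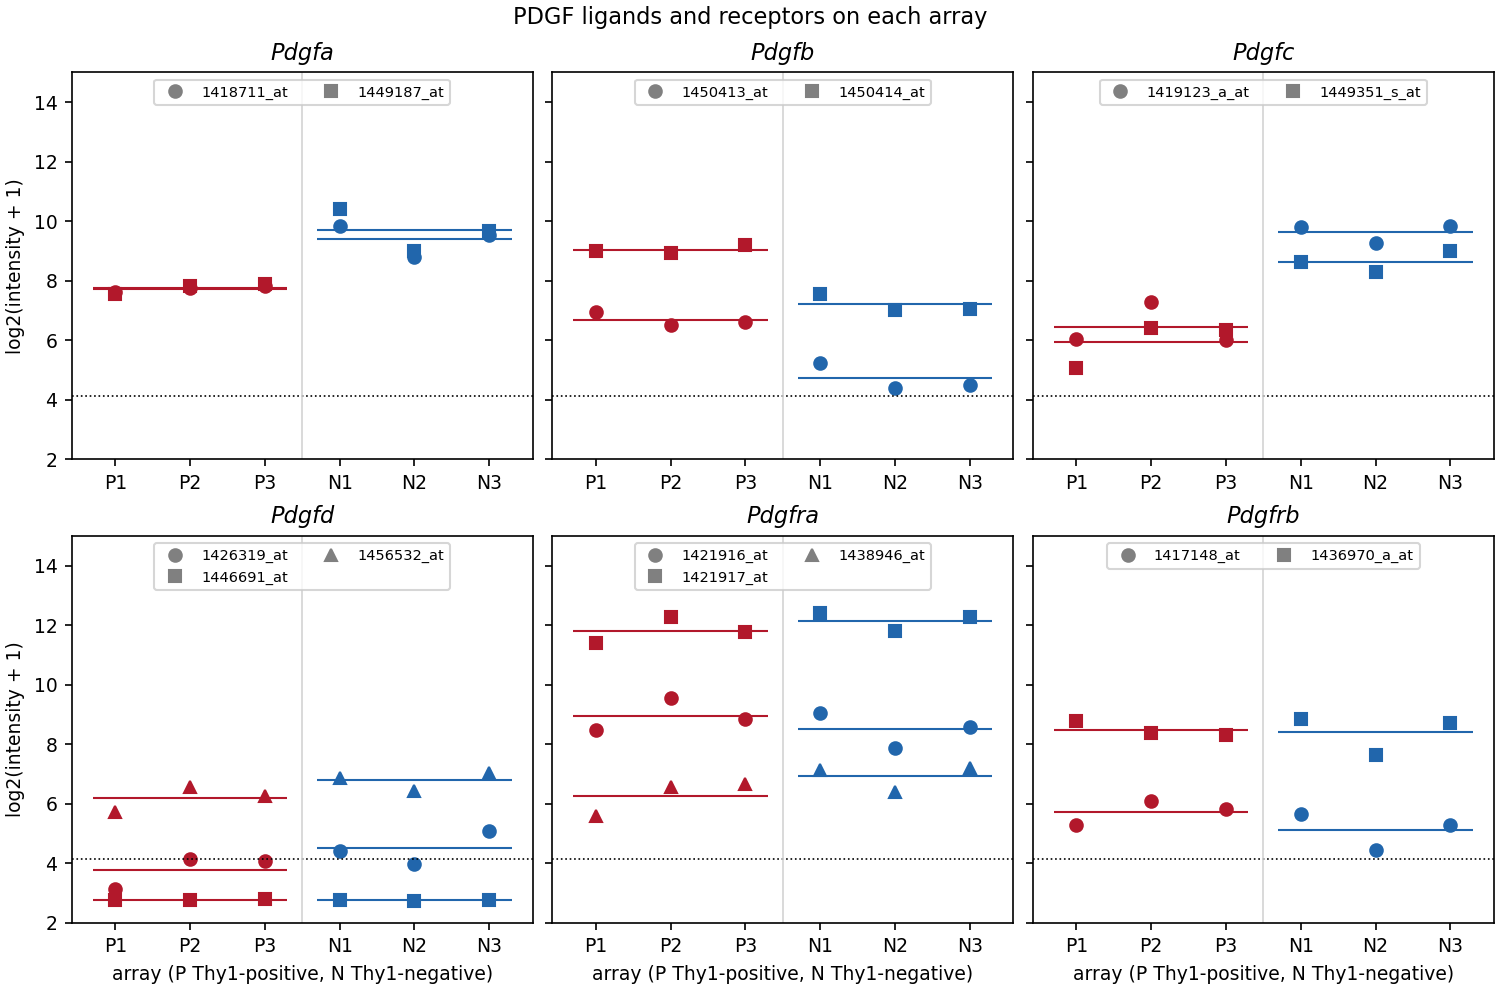
Level of each PDGF probe set on each array, as log2(intensity + 1) on the vertical axis, with Thy1-positive arrays in red at the left and Thy1-negative arrays in blue at the right of each panel. Symbols mark the probe sets of a gene, horizontal lines the mean of 3 arrays and the dotted line the mean of the array medians. Pdgfa and Pdgfc lie lower on all 3 Thy1-positive arrays and Pdgfb higher, while the fractions overlap for Pdgfd, Pdgfra and Pdgfrb.

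Thy1 itself measured 65.2 to 90.7 on the Thy1-positive and 4.08 to 5.70 on the Thy1-negative arrays, at least 11.4-fold higher when values below the 25th percentile of their array are raised to it (gene-level adjusted p = 0.000984, limma). The median intensity per array was 15.7 to 17.5. On the first principal component (84.2% of the variance) the fractions separated, at 81.8 to 107 for Thy1-positive arrays and -119, -62.0 and -111 for N1, N2 and N3, so N2 lay nearest to the Thy1-positive arrays. In such bulk samples, fewer cells of a type and less RNA per cell cannot be told apart. Intensities are linear and relative, levels below are log2(intensity + 1), and differences are Thy1-positive minus Thy1-negative. A probe set's intensity cannot be set against that of another gene. With 3 arrays a fraction, precision is limited.

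Pdgfa and Pdgfc both fell, so their promoter windows, 250 bases before to 50 after an annotated start, are shown first. The sequences are RefSeq's for GRCm38.p6, on the strand of the gene, and capitals mark GGGCGG or its reverse complement, the GC box bound by Sp1-type factors. Pdgfa has 2 annotated starts, on the minus strand at chr5:138994232-138994531 and chr5:138994895-138995194, and Pdgfc has 1 on the plus strand at chr3:81036166-81036465.
Pdgfa, first window: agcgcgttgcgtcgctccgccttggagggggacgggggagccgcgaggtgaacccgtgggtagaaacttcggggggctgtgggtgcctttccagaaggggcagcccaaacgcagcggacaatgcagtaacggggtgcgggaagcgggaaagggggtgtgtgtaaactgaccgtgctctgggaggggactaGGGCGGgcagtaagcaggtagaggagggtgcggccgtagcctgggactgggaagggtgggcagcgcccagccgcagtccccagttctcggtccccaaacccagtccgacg
Pdgfa, second window: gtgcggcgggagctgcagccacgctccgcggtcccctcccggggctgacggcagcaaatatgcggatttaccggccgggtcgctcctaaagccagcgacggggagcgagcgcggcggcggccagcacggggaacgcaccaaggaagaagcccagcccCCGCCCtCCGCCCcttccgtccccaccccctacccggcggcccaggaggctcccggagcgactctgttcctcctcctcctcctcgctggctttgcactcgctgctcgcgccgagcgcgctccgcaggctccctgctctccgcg
Pdgfc: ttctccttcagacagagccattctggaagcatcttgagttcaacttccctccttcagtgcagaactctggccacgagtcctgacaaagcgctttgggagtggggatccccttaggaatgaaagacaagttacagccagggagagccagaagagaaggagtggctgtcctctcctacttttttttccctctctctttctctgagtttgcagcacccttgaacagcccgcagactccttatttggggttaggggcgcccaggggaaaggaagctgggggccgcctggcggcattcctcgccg
The first Pdgfa window holds 1 GC box and the second 2, whereas the Pdgfc window holds 0. Of all 32851 windows of 300 bases, 35.7% hold this motif on either strand. The Pdgfa windows are 67.0% and 73.3% G or C and that of Pdgfc 55.0%, against a median of 52.7%. The motif GCGGGGGCG, of the kind bound by Egr1 and Wt1, and TATAAA were in none of these 3 windows, and are in 2.91% and 13.6% of all windows on either strand, with overlaps between motifs counted. A match or its lack describes these windows only.

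Pdgfa encodes the chain of PDGF-AA, the alpha receptor ligand of the tubules. Its brighter probe set, 1449187_at, measured 187, 225 and 234 on P1, P2 and P3 against 1348, 511 and 818 on N1, N2 and N3. All Thy1-positive arrays lay below all Thy1-negative ones, and N2 was the lowest of the Thy1-negative arrays. The level was 7.75 ± 0.17 (SD, n = 3) in Thy1-positive and 9.69 ± 0.70 (SD, n = 3) in Thy1-negative cells, a difference of -1.94 (SE 0.39, 95% interval -2.96 to -0.92, limma adjusted p = 0.0292). The other probe set, 1418711_at, was designed on the same transcript and is not independent evidence. It measured 197, 213 and 226 on P1, P2 and P3 against 918, 441 and 737 on N1, N2 and N3. Its difference was -1.66 (SE 0.30, 95% interval -2.44 to -0.87, limma adjusted p = 0.0223), which is 3.15-fold lower. Pdgfa varied less among the Thy1-positive arrays than among the Thy1-negative ones. The call of 1449187_at was lost without P1 (-1.84), P2 (-1.97), P3 (-2.002) or N3 (-1.95). That of 1418711_at was lost without P1 (-1.60), P2 (-1.66), P3 (-1.70), N1 (-1.43) or N3 (-1.58).

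Pdgfc encodes PDGF-C, a CUB-domain ligand of the alpha receptor that tissue plasminogen activator cuts into its active form. Its brighter probe set, 1419123_a_at, measured 64.2, 154 and 62.6 on P1, P2 and P3 against 889, 613 and 908 on N1, N2 and N3. The fractions stood far apart, with P2 the highest of the Thy1-positive arrays and N2 the lowest of the Thy1-negative ones. The level was 6.43 ± 0.73 (SD, n = 3) in Thy1-positive and 9.63 ± 0.32 (SD, n = 3) in Thy1-negative cells, a difference of -3.20 (SE 0.43, 95% interval -4.33 to -2.07, limma adjusted p = 0.0119). In size this difference exceeded those of 98.5% of all probe sets. The second probe set, 1449351_s_at, was designed on the same RefSeq transcript. It measured 32.4, 84.0 and 79.6 on P1, P2 and P3 against 397, 310 and 508 on N1, N2 and N3, 6.51-fold lower (-2.70, SE 0.45, limma adjusted p = 0.0189). On it P3 was close to P2, whereas on 1419123_a_at P3 was close to P1, so the order of the Thy1-positive arrays depends on the probe set. The call of 1419123_a_at was lost without P3 (-2.98) or N3 (-3.10), and that of 1449351_s_at without P3 (-2.90), N1 (-2.70) or N3 (-2.53).

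Many markers of Sertoli, peritubular myoid and Leydig cells were also lower. At gene level 14.4% of all genes were lower and 18.5% higher. All 8 Sertoli cell markers were lower, among them the hormone gene Amh, at least 29.2-fold lower, and the FSH receptor gene Fshr, at least 26.9-fold lower. Both had a low signal in the Thy1-positive fraction, which means a mean below the 25th percentile of the arrays, and such values were raised to it for the fold. Their summed intensity was 475 to 2346 on Thy1-positive and 14033 to 20677 on Thy1-negative arrays. P2 held the 2346, against 475 on P1 and 549 on P3, and P2 is also the array on which both Pdgfc probe sets were highest among the Thy1-positive arrays. Both Pdgfa probe sets were highest on P3 instead. Of 6 markers of peritubular myoid cells, the contractile cells around the tubules, 4 were lower, with a summed intensity of 1726 to 2219 against 12890 to 14746 on Thy1-negative arrays. They included the smooth muscle genes Myh11 (-3.19, SE 0.24) and Acta2 (-2.86, SE 0.11). Over all probe sets, 1 of the 2 of Myh11 and 1 of the 3 of Acta2 were lower. Cnn1 and Des (0.30) were not called. Of 4 measured Leydig cell markers 2 were lower at gene level, the steroid enzyme genes Cyp17a1 (-1.46, SE 0.35) and Hsd3b1 (-1.23, SE 0.32), with sums of 2309 to 3732 against 4801 to 9694. The single probe set of Hsd3b1 did not pass over all probe sets. The part of these cell types in the lower Pdgfa and Pdgfc was not tested.

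Pdgfb encodes the chain of PDGF-BB, which binds both receptors. Its brighter probe set, 1450414_at, measured 513, 483 and 589 on P1, P2 and P3 against 188, 127 and 131 on N1, N2 and N3. Every Thy1-positive array lay above every Thy1-negative one, and N1 was the highest Thy1-negative array. The level was 9.04 ± 0.15 (SD, n = 3) in Thy1-positive and 7.20 ± 0.31 (SD, n = 3) in Thy1-negative cells, a difference of 1.84 (SE 0.19, 95% interval 1.35 to 2.33, limma adjusted p = 0.00679). The other probe set, 1450413_at, shares its target transcript and measured 122, 89.5 and 96.9 on P1, P2 and P3 against 36.7, 20.2 and 21.6 on N1, N2 and N3. It was 3.92-fold higher (1.97, SE 0.27, limma adjusted p = 0.0128), and the arrays kept the same order in the Thy1-negative fraction. The call of 1450414_at held in all 6 fits that left out 1 array, with differences of 1.74 to 2.02. That of 1450413_at was lost without P3 (2.01) or N3 (1.86).

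Markers of germ cells and macrophages were higher beside Pdgfb. Of 8 germ cell markers 7 were higher at gene level, where 18.5% of all genes were higher and 14.4% lower. They included Ret (3.62, SE 0.24) and Gfra1 (3.47, SE 0.10), which form the receptor for GDNF. The single probe sets of Ddx4 and Sohlh1, both counted as higher, did not pass over all probe sets. The summed intensity of the germ cell list was 34069 to 35774 against 9579 to 19580. All 8 macrophage markers were higher, including the complement gene C1qa, at least 195-fold higher, and the signalling adaptor gene Tyrobp (7.66, SE 0.13), which was below the array median on all 3 Thy1-negative arrays, with a sum of 9171 to 15151 against 83.8 to 118 on Thy1-negative arrays, where 4 of them were at low signal. Among Thy1-positive arrays the germ cell sum was lowest on P2 (34069) and highest on P3 (35774), as was Pdgfb by 1450414_at (483 and 589). By 1450413_at Pdgfb was also lowest on P2 (89.5) but highest on P1 (122). Among Thy1-negative arrays the germ cell sum was highest on N2 (19580), where Pdgfb by 1450414_at was lowest (127). The macrophage sum was highest on P2 among Thy1-positive arrays (15151), where Pdgfb was lowest, but among Thy1-negative arrays it was highest on N1 (118), where Pdgfb was also highest (188). All 4 measured platelet markers, Itga2b, Gp9, Gp5 and Ppbp, were at low signal on all 6 arrays, with sums of 16.9 to 17.1 against 15.6 to 17.0. Of 6 endothelial markers Tek rose (1.28, SE 0.25), Kdr fell to low signal in Thy1-positive cells (at least 3.31-fold lower), Tie1 was at low signal on all arrays, and the sums overlapped at 152 to 309 against 181 to 302. Kdr passed at gene level, but its single probe set did not pass over all probe sets. The part of germ cells and macrophages in the higher Pdgfb was not tested.

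Pdgfd encodes PDGF-D, the CUB-domain ligand of the beta receptor. Its brightest probe set, 1456532_at, measured 51.5, 94.1 and 76.0 on P1, P2 and P3 against 116, 85.6 and 130 on N1, N2 and N3. The fractions overlapped through P2 and N2. The difference was -0.60 (SE 0.29, 95% interval -1.36 to 0.16, limma adjusted p = 0.232). Probe set 1426319_at lay near the array median, at 7.89 to 16.6 on Thy1-positive and 14.9 to 33.3 on Thy1-negative arrays, with a difference of -0.72 (SE 0.42, limma adjusted p = 0.328). Probe set 1446691_at measured 5.85 to 5.90 in Thy1-positive and 5.73 to 5.86 in Thy1-negative cells, below the array median on all 6 arrays and nearly constant, so it gives no usable level. The interval of 1456532_at allows a decrease of up to 1.36 on the log2 scale as well as no decrease.

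**Figure D2:**
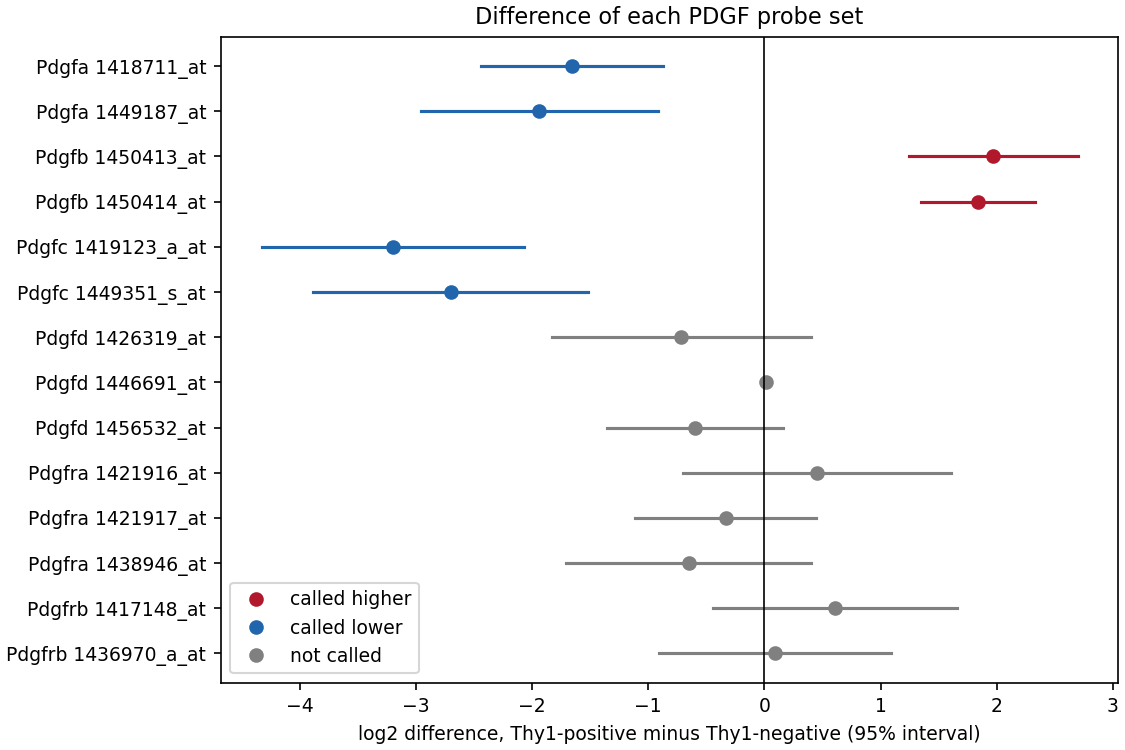
Difference of mean log2(intensity + 1), Thy1-positive minus Thy1-negative, for each of the 14 probe sets on the horizontal axis, with its 95% interval from limma. Red points were called higher, blue points lower and grey points were not called; both Pdgfb probe sets lie near 2, both Pdgfc probe sets near -3, and the intervals of all 5 receptor probe sets include 0.

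Pdgfra encodes the alpha receptor, a marker of interstitial mesenchyme and of the precursors of Leydig cells. Its brightest probe set, 1421917_at, measured 2688, 5005 and 3477 on P1, P2 and P3 against 5375, 3554 and 4903 on N1, N2 and N3. The fractions overlapped, with P2 as high as the Thy1-negative arrays and N2 as low as P3. The level was 11.82 ± 0.45 (SD, n = 3) in Thy1-positive and 12.15 ± 0.31 (SD, n = 3) in Thy1-negative cells, a difference of -0.33 (SE 0.30, 95% interval -1.11 to 0.45, limma adjusted p = 0.527). Probe set 1438946_at measured 46.7, 94.2 and 99.5 on P1, P2 and P3 against 140, 84.1 and 147 on N1, N2 and N3, a difference of -0.65 (SE 0.40, limma adjusted p = 0.348). Probe set 1421916_at, designed on the same transcript as 1421917_at, pointed the other way (0.45, SE 0.44, limma adjusted p = 0.552). It measured 354, 749 and 458 on P1, P2 and P3 against 529, 232 and 385 on N1, N2 and N3. No direction can be given for Pdgfra, since its probe sets differ in sign and none passed.

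Within each fraction Pdgfra shared part of its order over the arrays with the interstitial mesenchyme list, and with other lists too. Of the 7 measured genes of the interstitial mesenchyme list 1 was lower at gene level, the transcription factor gene Tcf21 (-1.24, SE 0.31), and 0 were higher. Of all genes 14.4% were lower and 18.5% higher. Over all probe sets, 0 of the 2 of Tcf21 passed, while 2 of the 6 of Nr2f2, not called at gene level, were lower. The list's mean level was 9.88, 11.41 and 10.58 on P1, P2 and P3 against 11.18, 10.75 and 11.22 on N1, N2 and N3. Pdgfra by 1421917_at was at 11.39, 12.29 and 11.76 on P1, P2 and P3 against 12.39, 11.80 and 12.26 on N1, N2 and N3. Both had P1 lowest and P2 highest among Thy1-positive arrays, and N2 lowest among Thy1-negative arrays. N3 was the highest Thy1-negative array for the list, whereas N1 was for Pdgfra. The mean levels of the Sertoli cell and endothelial lists also had P1 lowest, P2 highest and N2 lowest. The shared order is therefore not particular to interstitial mesenchyme. The summed intensity of the list overlapped between the fractions, at 14752 to 39905 on Thy1-positive against 29405 to 38739 on Thy1-negative arrays. Pdgfra was not in this list.

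Pdgfrb encodes the beta receptor, known from pericytes and other mural cells. Its brighter probe set, 1436970_a_at, measured 436, 331 and 319 on P1, P2 and P3 against 461, 198 and 415 on N1, N2 and N3. All Thy1-positive arrays lay inside the range of the Thy1-negative ones, which N2 extended downwards. The level was 8.49 ± 0.24 (SD, n = 3) in Thy1-positive and 8.40 ± 0.66 (SD, n = 3) in Thy1-negative cells, a difference of 0.09 (SE 0.38, 95% interval -0.91 to 1.09, limma adjusted p = 0.913). Without N2 the difference was -0.29 and without P1 it was -0.05, again without a call. Probe set 1417148_at measured 38.4, 66.8 and 55.9 on P1, P2 and P3 against 49.9, 20.9 and 37.7 on N1, N2 and N3, a difference of 0.60 (SE 0.40, 95% interval -0.45 to 1.66, limma adjusted p = 0.384). On it P1 was the lowest Thy1-positive array, on 1436970_a_at the highest.

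The pericyte list did not move as one with Pdgfrb. Of its 6 genes 2 were higher, Rgs5 (4.93, SE 0.63), a regulator of G protein signalling, and the adhesion molecule gene Mcam (2.4997, SE 0.23). The other 4 were not called: Cspg4 (-1.03), Notch3 (-0.43), Abcc9 (0.28) and Kcnj8 (0.46), the first 2 with a negative difference. Of all genes 33.0% were called, 18.5% higher and 14.4% lower. Over all probe sets, 2 of the 4 of Rgs5 passed. The list's summed intensity was 2769 to 3499 on Thy1-positive and 781 to 977 on Thy1-negative arrays. On Thy1-positive arrays most of it came from Rgs5 (330 to 884) and Mcam (2118 to 2256), while Pdgfrb overlapped between the fractions. Within the Thy1-negative fraction the list's mean level was lowest on N2, at 5.77 against 6.70 on N1 and 6.37 on N3, and N2 was also lowest for both Pdgfrb probe sets. The Sertoli cell, Leydig cell, interstitial mesenchyme and endothelial lists were lowest on N2 too, so this is not particular to pericytes. The peritubular myoid and germ cell lists were highest on N2. The part of pericytes in the level of Pdgfrb was not tested.

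**Figure D3:**
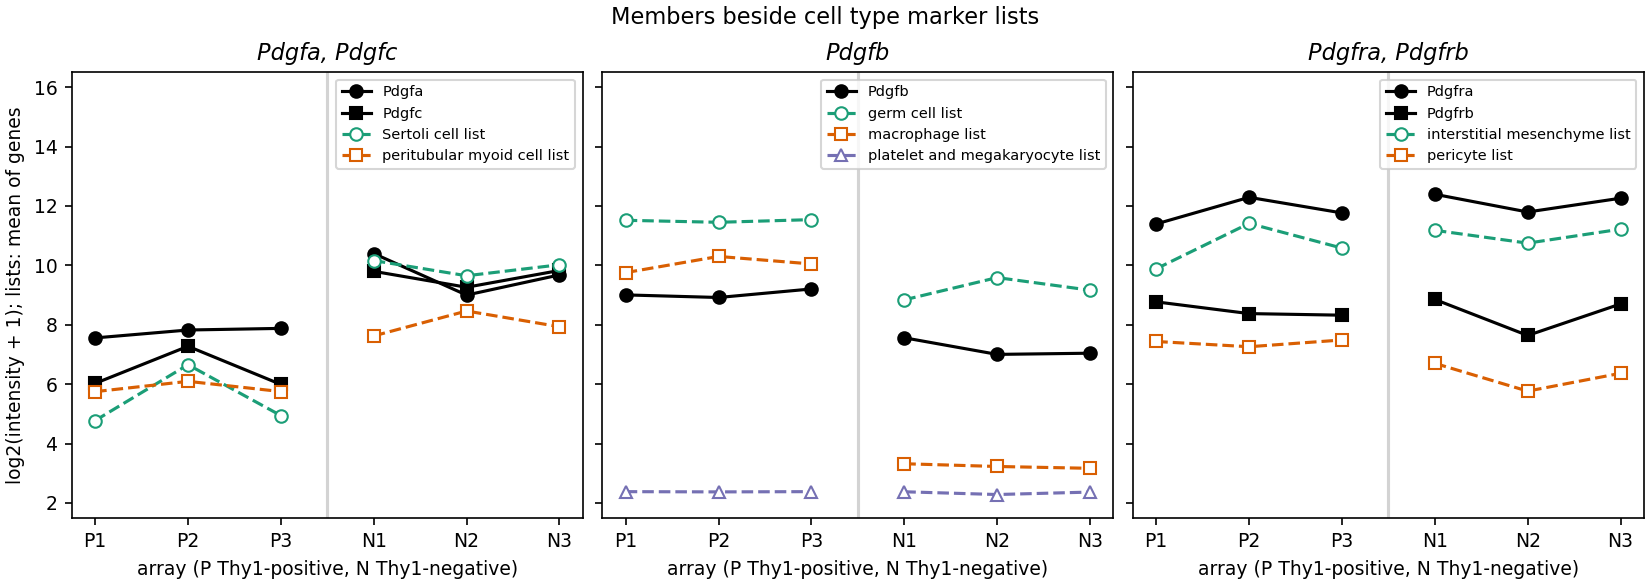
Level of the brightest probe set of 5 PDGF genes (black, solid) beside the mean level of marker lists (coloured, dashed) on each array, in log2(intensity + 1), with Thy1-positive arrays left of Thy1-negative ones. The Sertoli cell list rises on P2 as Pdgfc does, the platelet list is flat near 2.4, and Pdgfra and the interstitial mesenchyme list share their highest Thy1-positive array, P2, and their lowest Thy1-negative array, N2.

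Genes whose profile over the 6 arrays lay nearest to that of a member were sought among the other 9095 genes with a level above the median of all genes. Likeness was the root mean square distance between log2 profiles, each centred on its own mean, so that a low value means alike in both the difference and the spread. This is a description over 6 arrays in 2 fractions. For Pdgfc the nearest genes were Srgap3 (0.0524), Kitl (0.0674), Etl4 (0.108), Zdhhc2 (0.114) and Ppt1 (0.123). Kitl encodes the Kit ligand, a Sertoli cell growth factor for germ cells. For Pdgfa they were Shisa2 (0.150), Septin11 (0.171), the TGF-beta antagonist gene Smad7 (0.173), Dhrs4 (0.183) and the proteoglycan gene Gpc3 (0.185). For Pdgfb they were Il17rd (0.170), Bin1 (0.173), the meiotic gene Mnd1 (0.183), Etv5 (0.184), a transcription factor of stem spermatogonia, and the cell cycle factor gene E2f1 (0.186). Pdgfra lay nearest to Tmem176a (0.0543), Rhog (0.0629), Eng (0.0700), Ogn (0.0723) and Sulf2 (0.0737). Pdgfrb lay nearest to Ccnd2 (0.122), Pimreg (0.131), Chchd5 (0.145), D17H6S56E-5 (0.163) and Iqgap2 (0.165), and Pdgfd to Myadm (0.0710), Calcoco1 (0.0766), Tgfbr3 (0.0821), Mpp1 (0.0878) and Rnf122 (0.0941). The distance includes the difference between the fractions, so the nearest genes share that of the member by selection. Those of Pdgfa, Pdgfb and Pdgfc were all called in the member's direction, and none of those of the other 3 members was called. These calls follow from the selection and are no separate result.

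The genes of proteins that cut or bind the PDGF ligands were lower or not called. Of 8 such genes 4 were lower and 0 higher at gene level, with a median difference of -0.84. Of all 18193 genes 14.4% were lower and 18.5% higher, and the median was 0.01. In a fit of the 9096 genes above the median level alone, 2409 were lower and 3116 higher, 60.7% in all. The lower genes of the list were the proprotein convertase genes Pcsk5 (-2.23, SE 0.26) and Furin (-1.37, SE 0.32), Sparc (-1.97, SE 0.48), a matrix protein that binds PDGF-B, and Plat (-1.05, SE 0.11), which encodes tissue plasminogen activator. Pdgfc and Plat, the gene of a protease that activates PDGF-C, both fell. The others were Plau (0.01, SE 0.02), the urokinase gene, which was dim and nearly constant, the coreceptor gene Nrp1 (0.40, SE 0.41), the scavenger receptor gene Lrp1 (-0.12, SE 0.33) and A2m (-0.62, SE 0.23). Pcsk5 and Plat passed in all 6 fits that left out 1 array. Furin failed without P1 (-1.20), P3 (-1.26), N1 (-1.18) or N3 (-1.40), and Sparc without P1 (-1.59), P3 (-1.88), N1 (-1.88), N2 (-2.10) or N3 (-1.94).

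Inside the cell the pathway genes moved both ways. Of 20 measured adaptors and effectors 6 were higher and 8 lower, with a median of -0.26, against 33.0% of all genes called and 60.7% of the genes above the median level, fitted alone. Among the higher ones were the adaptor genes Grb7 (2.02, SE 0.25) and Nck1 (1.35, SE 0.18) and the transcription factor genes Stat5a (1.60, SE 0.30) and Stat3 (0.97, SE 0.17). Among the lower ones were Stat5b (-1.81, SE 0.45), the Ras exchange factor gene Sos1 (-1.38, SE 0.20), the adaptor gene Crk (-1.001, SE 0.07) and the Src family kinase gene Yes1 (-0.89, SE 0.02). No probe set of Stat5b passed over all probe sets, nor did any of the 3 of Grb10, which is counted among the lower genes. Fyn is counted as higher by its brightest probe set, but over all probe sets 0 of its 2 were higher and 1 was lower. Stat3 has probe sets called in either direction, and with all its probe sets averaged the difference was -0.04. Of 11 genes that limit receptor signalling, 1 was higher, the ubiquitin ligase gene Cbl (0.35, SE 0.08), and 0 were lower, with a median of 0.06. The others were Rasa1 (0.46), Ptprj (0.53), Spry4 (1.11), Ptpn1 (0.06), Ptpn2 (0.14), Acp1 (-0.30), Cblb (-0.35), Spry1 (-0.81), Socs3 (-0.98) and Spry2 (-1.04), with gene-level adjusted p of 0.0607 to 0.583 by limma. Over all probe sets, some probe sets of these uncalled genes passed: 2 of 3 for Rasa1, 2 of 4 for Spry4, 1 of 4 for Ptpn2 and 1 of 3 for Cblb were higher, and 1 of 6 for Acp1 was lower. Without P1, P2, P3, N1 or N3 the calls of Stat5a (1.64, 1.56, 1.60, 1.47 and 1.41) and Cbl (0.34, 0.38, 0.34, 0.31 and 0.33) were lost. Stat3 failed without P3 (0.99) or N1 (1.01), and Stat5b without P1 (-1.39), P3 (-1.91), N1 (-1.62), N2 (-1.998) or N3 (-1.81). Of the 44 genes of the 4 pathway lists together, 8 were higher and 13 lower, with 5 and 8 without P1, 5 and 6 without P3, 4 and 7 without N1, and 5 and 7 without N3. Of all genes 19.4%, 13.9%, 19.2% and 15.3% were called in the same 4 fits.

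**Figure D4:**
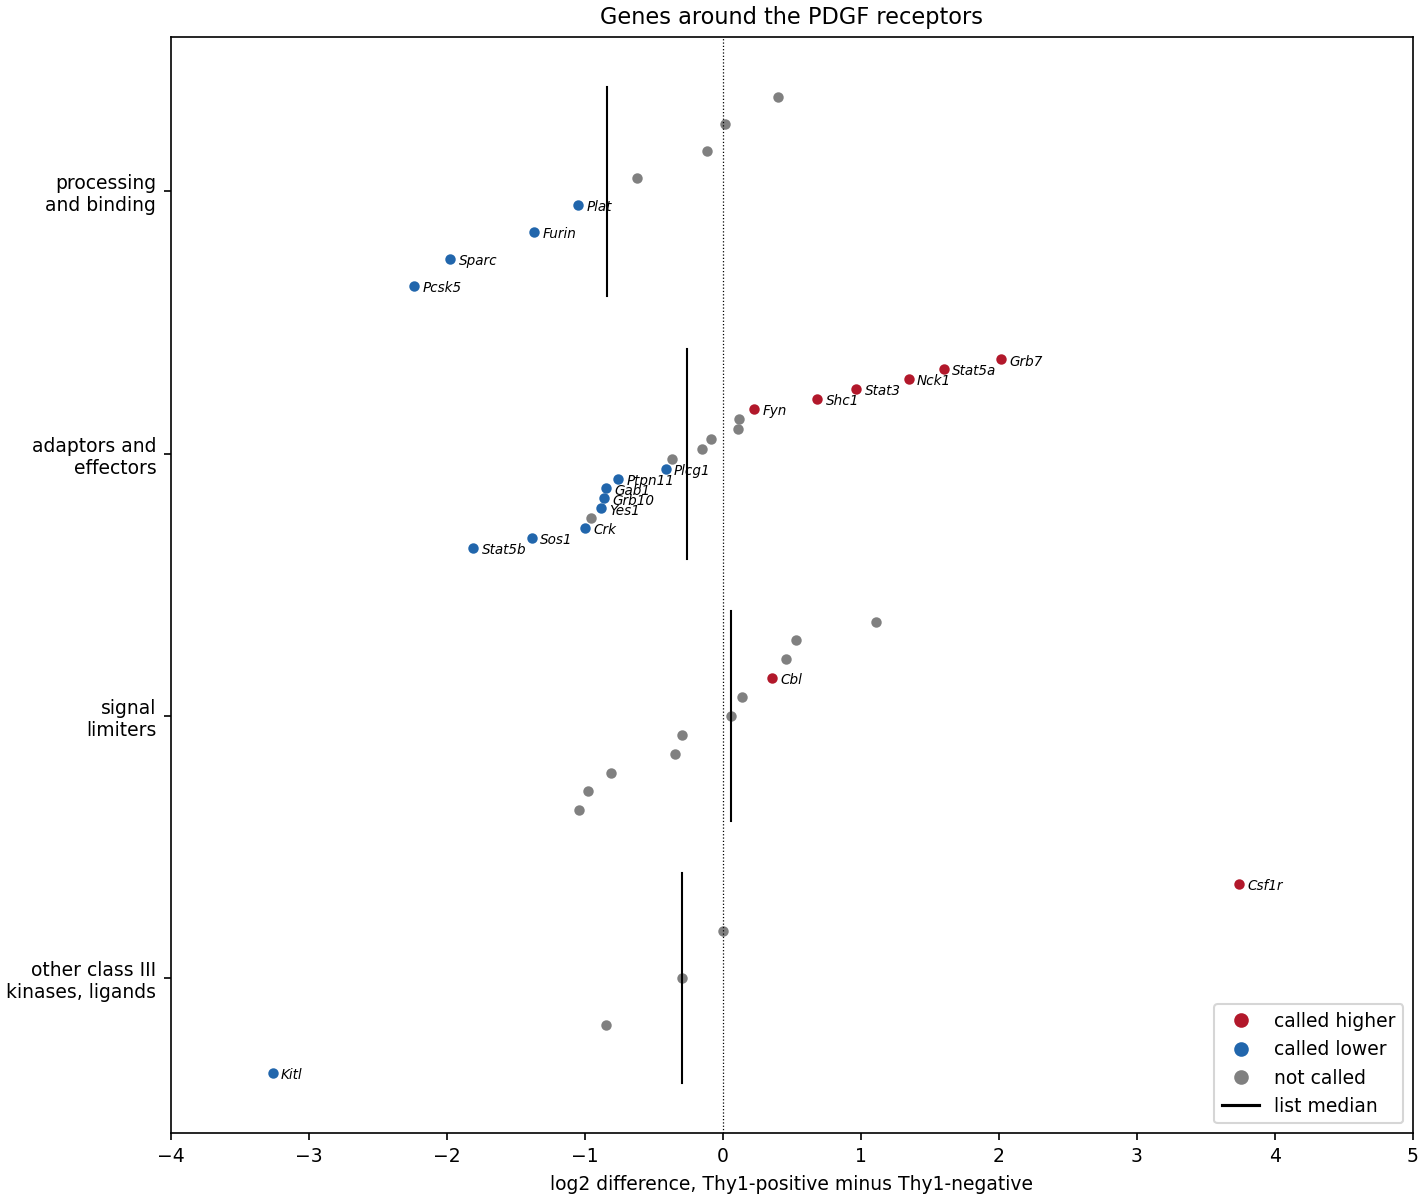
Difference of mean log2(intensity + 1), Thy1-positive minus Thy1-negative, for each measured gene of 4 lists around the PDGF receptors, with called genes named. Red points were called higher, blue points lower, grey points were not called, and black bars mark list medians; the processing and binding list has 4 lower and 0 higher genes, the adaptor list 6 higher and 8 lower.

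The PDGF receptors belong to the class III receptor tyrosine kinases with Kit, Csf1r and Flt3. Of the 5 measured genes of these other receptors and their ligands, Csf1r, the macrophage growth factor receptor, rose (3.74, SE 0.23) and Kitl fell (-3.26, SE 0.46). Kit (0.00, SE 0.57), Csf1 (-0.85, SE 0.59) and Flt3 (-0.30, SE 0.27) did not pass. Of all genes 33.0% were called, and 60.7% of the genes above the median level, fitted alone. Without N1, N2 or N3 another probe set of Csf1r was the brightest, with a difference of 8.63, 8.63 and 8.64.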

How the data were processed

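RNA of 6 samples was measured on 6 Affymetrix mouse arrays. The authors deposited 1 linear intensity per probe set and array. Per the submitters' processing notes the tool was GCRMA, while the labels' descriptions name Affymetrix Microarray Suite scaling, so which made the table is not settled here. Detection calls were not used.

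Of the probe sets, 64 controls were left out and 45037 tested as log2(intensity + 1), without filter or further normalization. The supplied platform annotation named 34945 by 1 gene, 932 by several and 9160 by none; RefSeq (GRCm38.p6) updated 0 symbols through Entrez identifiers, and 204 had no match. Member results are by probe set; other genes are by their most intense probe set on average (18193 genes). The fractions were compared by limma 3.58.1 (R 4.3.3; lmFit, eBayes, 2-sided) and Benjamini-Hochberg adjustment at 0.05, checked on simulated data. SD is over 3 arrays.

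Named genes were all members, Thy1 and the largest called changes of each list (up to 4 per direction in pathway lists, up to 2 in cell type lists). Also named were uncalled genes of pathway lists with 3 or fewer calls, markers at low signal on all arrays and the 5 nearest profiles per member. The uncalled genes of the processing and binding list and of the pericyte list were named after their values were seen. So were Fyn, Grb10, Nr2f2, Ddx4, Sohlh1, Cnn1, Des and Ptpn11. The endothelial, Sertoli and other marker lists, the members and the pathway lists were chosen with earlier results of these data known. Promoter motifs were chosen after the values were seen. Alternatives covered normalization, filters, pseudocount, block, variance, weights, probe set choice and leaving out arrays.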

Additional observations from a re-analysis of the deposited data

How the results depend on the processing

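Both Pdgfb, both Pdgfc and both Pdgfa probe sets kept their direction under every alternative that gave them a value. Over the fits without 1 array, 7.05% to 28.9% of all probe sets and 13.9% to 40% of all genes were called. The higher member probe sets numbered 1 to 2, the lower ones 0 to 4, the higher pathway genes 4 to 10 and the lower ones 6 to 16. With the replicate number as a block the counts were 1, 0, 1 and 3 in the same order. In that fit 2.73% of all probe sets and 8.13% of all genes were called, in place of 23.4% and 33.0%. Fewer residual degrees of freedom remain there. Same-numbered arrays did not deviate together (correlations -0.224, -0.193 and -0.0201 over 22518 probe sets), so they are not shown to be pairs. With array weights 7 member probe sets were lower, and 16 pathway genes were higher and 21 lower, while 53.2% of all probe sets and 67.4% of all genes were called. The lower member probe sets then included 1421917_at of Pdgfra (-0.54) and 1456532_at (-0.82) and 1426319_at (-1.08) of Pdgfd. None of these was called in the main fit. With arrays centred on their median 13 pathway genes were higher, while 10436 of all 18193 genes were called higher. With both arrays numbered 2 left out, an alternative chosen after seeing the data, 1 member probe set was higher, while 27.2% of all probe sets were called. Centring on the median or on housekeeping genes moved the median difference of all probe sets to 0.13 and -0.15, and the probe sets called higher and lower to 25863 and 5912 or 5671 and 24903, in place of 5332 and 5201. The nearly constant Pdgfd probe set 1446691_at followed these shifts, with calls at 0.13 and -0.14.

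Results that were near 0 or had discordant probe sets changed sign. Pdgfrb by 1436970_a_at was at -0.062 with housekeeping centring, -0.31 with array weights (-0.33 and called at gene level), -0.29 to 0.32 over the fits without 1 array and -0.23 without both arrays numbered 2. Pdgfra by 1421916_at was at -0.16 without both arrays numbered 2. With a gene's probe sets averaged, Fyn, higher by 0.23 at its brightest probe set, was at -0.45 and Stat3 at -0.038; for these the probe sets disagree. Smaller values by that setting were also found for Pcsk5 (-0.84), Plat (-0.52), Nck1 (0.57), Crk (-0.37), Sos1 (-0.41) and Stat5b (-0.95), the last 2 no longer called, and larger ones for Csf1r (6.37) and Cbl (0.68, not called). That setting has no value for counts of member probe sets. Over all alternatives the smallest decrease of Ptpn11, counted among the lower adaptors and effectors, was -0.068, against -0.76 in the main fit. Over all probe sets, 1 of the 3 of Ptpn11 was lower. For Sparc the smallest decrease was -1.32, against -1.97. The remaining causes were not tested.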
